A study of Mus musculus with 21 samples.

Results

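Light zone and dark zone B cells of the germinal centre were compared with each other inside G1, the phase of the cell cycle before DNA is copied. The cells were those of the non-plasma-cell (non-PC) fraction that the authors' cell table calls G1 and annotates LZ or DZ. They numbered 2565 of the 6619 cells in the table, 1691 of them light zone and 874 dark zone. The comparison asked which genes still separated the zones once the phase was held fixed, since dark zone cells divide more.

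The study immunised mice under the skin at the tail base with 100 µg of NP-KLH, a hapten on a carrier protein, in Sigma Adjuvant System. A single oral dose of 5 mg tamoxifen, given no earlier than day 6, switched on the fluorescent protein eYFP through Cre-ERT2, a recombinase that needs tamoxifen to act. All groups used here carried that label and received both agents, and the promoter driving the recombinase, the strain, the sex and the age are not given in the sources used here. Draining lymph nodes were taken on days 10, 16 and 22 from 2 mice per day, IgD-negative eYFP-positive cells were sorted, marked by mouse with barcoded antibodies to CD45, and pooled within the non-PC and the plasma cell fraction. The series held 21 samples, with 8 gene expression libraries in each fraction, and each sample pooled all 6 mice. The replicate was therefore the mouse, as the cell table names it.

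A germinal centre is the structure in a lymphoid follicle where B cells mutate their antibody genes and compete to be selected. In the dark zone B cells divide and mutate their antibody genes, and the receptor CXCR4 holds the cells there. In the light zone B cells take up antigen from follicular dendritic cells, present it on MHC class II to T follicular helper cells, and receive signals through the B cell receptor and CD40. Selected cells switch on MYC and return to the dark zone.

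The zone of a cell was read from its RNA and not from its place in the tissue. The authors' zone labels followed a continuous zone score in the cell table, which runs from light to dark: a single value, 0.5035, separated the labels in all but 40 of 5463 zone cells of any phase, and in all but 20 of the G1 cells. The zones therefore join at this value, with 375 light zone and 298 dark zone G1 cells lying within 0.05 of it. The genes that make up the light and dark scores are not listed in the sources used here, so they were recovered from the counts by regression, which gave 179 light score and 150 dark score genes. Of these, 114 and 110 were detected well enough in G1 to be tested. Because the labels were made with them, their zone differences are given below as descriptions only, and the tests reported concern genes outside both scores.

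**Figure D1:**
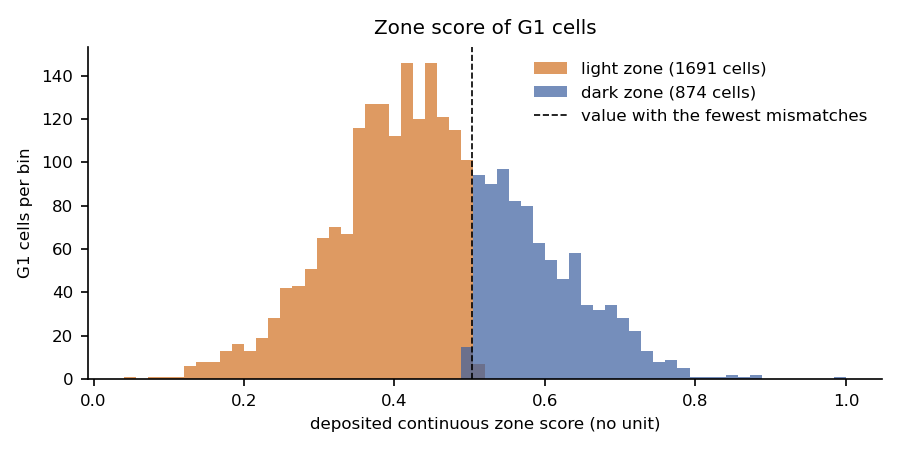
Number of G1 cells of the non-PC fraction (vertical axis) by the authors' continuous zone score (horizontal axis, no unit, light to dark), for cells annotated light zone and dark zone. The 2 labels meet at a score of 0.5035 with little overlap, and 375 light zone and 298 dark zone cells lie within 0.05 of that value.

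The fixed markers that are score genes went the way of the labels, which were made with them, so their direction is no test. Fixed markers outside the scores are described further below. Among score genes Cd83, a surface protein of activated B cells, averaged 672 CPM (UMI counts scaled to a common library total) in light zone G1 cells against 164 CPM in dark zone G1 cells. Cd40 averaged 128 against 45.5 CPM. The dark zone markers Gcsam, Pafah1b3 and Cxcr4, score genes too, went the other way. Gcsam stood at 149 CPM in the light zone and 322 CPM in the dark zone and Pafah1b3 at 173 and 504 CPM. Cxcr4 was lower in the light zone by −1.25 (log2). The germinal centre identity factor Bcl6 is expressed in both zones and stood at 68.3 ± 5.02 and 69.0 ± 9.16 CPM (SD over 6 mice), differing by 0.01 ± 0.09 on the log2 scale (SE; edgeR adjusted p = 0.976).

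Sums of counts per mouse and zone held 127 to 356 light zone cells and 76 to 242 dark zone cells, with totals of 923949 to 2522251 and 614485 to 1741700 UMIs. Dark zone G1 cells were slightly deeper: the median was 7115 ± 587 UMIs per cell against 6619 ± 465 in the light zone (SD, n = 6 mice), higher in the dark zone in 6 of 6 mice (2-sided exact permutation test by sign changes, p = 0.03125, the smallest 6 pairs allow, adjusted p = 0.0417 over 4 such comparisons). Only 1 of the 2565 cells shared its barcode with a cell of the plasma cell fraction. Nothing states that the mice of a day came from separate experiments, so the p values measure the spread between these 6 mice.

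G1 cells made up a larger share of the light zone than of the dark zone. In the light zone the share called G1 ran from 46.0% to 59.0% over the mice (53.9% ± 5.43, SD, n = 6), and in the dark zone from 29.2% to 42.6% (37.2% ± 4.64). The ranges did not overlap, and the light zone was higher in 6 of 6 mice (2-sided exact permutation test, p = 0.03125, adjusted p = 0.0417). The cells outside G1 differed in kind as well: of the cycling light zone cells 70.7% were in S phase (1008 of 1425), against 42.1% of cycling dark zone cells (620 of 1473).

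**Figure D2:**
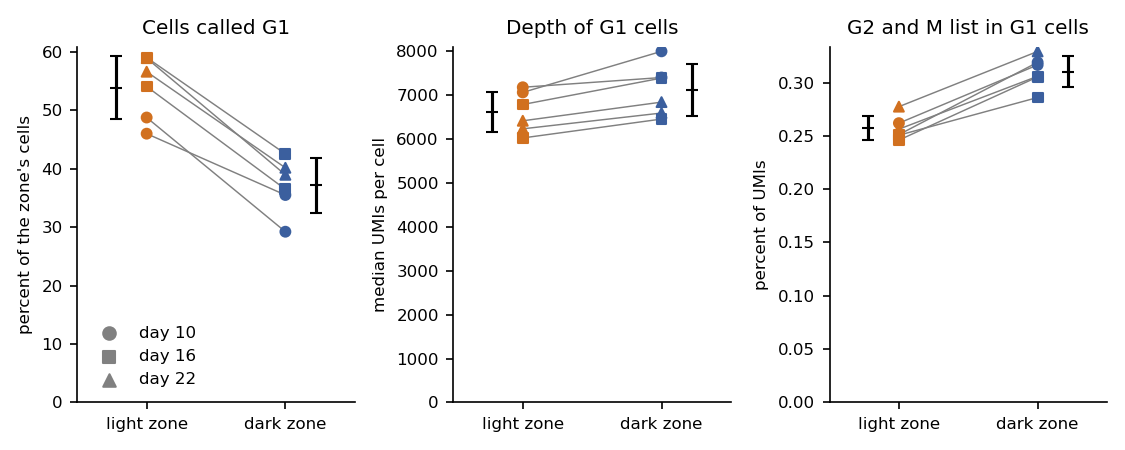
Percent of each zone's cells called G1 (left), median UMIs per G1 cell (middle) and percent of G1 UMIs from the G2 and M phase list (right), with 1 line per mouse, marker shape for the day, and the mean and SD over 6 mice in black. The G1 share was higher in the light zone in 6 of 6 mice (46.0% to 59.0% against 29.2% to 42.6%), and depth and the G2 and M phase share were higher in the dark zone in 6 of 6.

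Holding the phase fixed left many zone genes. Of 7375 genes tested in G1, 752 (10.2%) were higher in the light zone and 670 (9.08%) higher in the dark zone, at an adjusted p under 0.05 in edgeR's quasi-likelihood test with the mouse as a block. Of the 7151 tested genes outside the zone scores, 656 (9.17%) were higher in the light zone and 578 (8.08%) in the dark zone. For 237 (3.31%) and 202 (2.82%) of these the 6 values of one zone did not overlap the 6 of the other. Most differences were small: the median size over the 1234 called genes outside the scores was 0.41 on the log2 scale, and 67 genes differed by over 2-fold, 46 of them higher in the light zone. The scaling centres the bulk of genes near 0 (median 0.00 over genes outside the scores), so differences are relative to that bulk. List counts outside the scores, given below, can be set beside the 9.17% and 8.08% over all tested genes outside them.

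The largest light zone difference outside the scores, among genes with at least 20 CPM there, belonged to Il4i1, which codes for a secreted enzyme that oxidises amino acids (chromosome 7, 44816387 to 44840809, GRCm38, plus strand). Its lowest, median and highest values over the mice were 338, 410 and 451 CPM in the light zone and 60.2, 75.1 and 97.3 CPM in the dark zone. The zones were far apart in every mouse, and the log2 difference was 2.37 ± 0.06 (SE, n = 6 mice; edgeR adjusted p = 1.63e-13). Il4i1 shares its locus and strand with Nup62, so reads of the pair can be hard to assign, and Nup62 differed by 0.26 ± 0.10 (edgeR adjusted p = 0.082).

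Fcer2a codes for CD23, the low-affinity IgE receptor of B cells (chromosome 8, 3681737 to 3694175, minus strand). It stood at 201, 285 and 411 CPM in the light zone against 63.4, 96.7 and 147 CPM in the dark zone (lowest, median and highest), with no overlap. The difference was 1.56 ± 0.06 (log2, edgeR adjusted p = 4.04e-12).

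Cd72 codes for an inhibitory co-receptor of the B cell receptor (chromosome 4, 43446462 to 43454628, minus strand). Its light zone values were 94.2, 171 and 305 CPM and its dark zone values 23.2, 57.9 and 94.1 CPM, so that the highest dark zone mouse came next to the lowest light zone mouse. Within each mouse the light zone was higher, and the paired difference was 1.65 ± 0.10 (log2, edgeR adjusted p = 3.5e-09).

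Hhex, a homeobox transcription factor of memory B cells, was scarce in both zones but higher in the light zone, at 16.1, 20.2 and 31.8 CPM against 3.24, 5.27 and 11.4 CPM. The log2 difference was 1.74 ± 0.27 (edgeR adjusted p = 0.00016). The memory B cell list as a whole went both ways. Of its 6 tested genes outside the scores 2 were higher in the light zone and 2 in the dark zone, with a median of −0.27. That list took 0.123% of UMIs in the light zone and 0.139% in the dark zone, and was higher in the light zone in 1 of 6 mice. The survival gene Bcl2a1b, a BCL2 relative, stood at 77.9, 109 and 135 CPM in the light zone and 32.8, 43.5 and 71.6 CPM in the dark zone, with no overlap (1.28 ± 0.09, log2). Its near-identical copy Bcl2a1d gave 1.24 ± 0.17, and because the copies can share reads the split between them is uncertain. Ppap2a, a phosphatase of lipid messengers (1.33 ± 0.13), Hs3st1, an enzyme that sulfates heparan (1.22 ± 0.16), and Serpinb6b, a protease inhibitor (1.21 ± 0.17, zones overlapping), completed the 10 largest outside the scores among genes with at least 20 CPM in the higher zone and 1 direction in all 6 mice, without antibody, mitochondrial, ribosomal and predicted genes, with Ifi30 below. These 10 and their dark zone counterparts were picked after their values were seen. Of the fixed light zone markers outside the scores, 10 of 12 tested genes were higher in the light zone and none was lower, with a median log2 difference of 0.77.

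**Figure D3:**
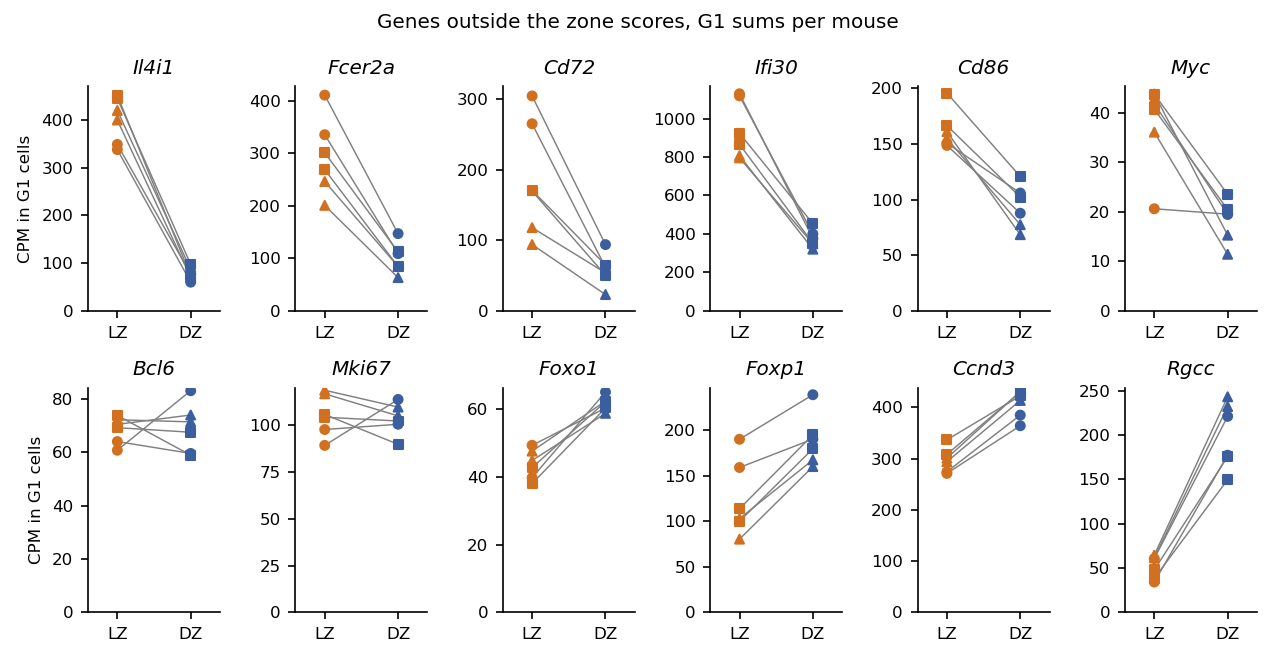
CPM of 12 genes outside the zone scores in light zone and dark zone G1 cells (vertical axes, CPM, each gene on its own scale; 1 line per mouse, marker shape for the day, 6 mice). Il4i1, Fcer2a, Ifi30 and Cd86 were higher in the light zone without overlap, Rgcc, Foxo1 and Ccnd3 higher in the dark zone without overlap, and Bcl6 and Mki67 overlapped between the zones.

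Genes of antigen presentation were higher in the light zone in G1. MHC class II molecules carry peptides to helper T cells, and 13 of the 14 genes on that list were higher in the light zone. Outside the scores the count was 9 of 10, with none higher in the dark zone and a median of 0.54. Ifi30 codes for GILT, the lysosomal enzyme that reduces disulfide bonds of antigens before loading (chromosome 8, 70762774 to 70766663, minus strand). It stood at 795, 894 and 1129 CPM in the light zone and 321, 364 and 454 CPM in the dark zone. The zones did not overlap, and the log2 difference was 1.31 ± 0.05 (edgeR adjusted p = 1.91e-11). H2-Oa, a chain of the H2-O modulator of peptide loading, was at 438, 508 and 554 CPM against 218, 273 and 311 CPM, again without overlap (0.90 ± 0.05, log2). Smaller differences were seen for Cd74, the invariant chain (0.55 ± 0.02), Ciita, the master activator of these genes (0.57, edgeR adjusted p = 1.8e-05), and the protease Ctss (0.42). Lgmn, another lysosomal protease, was the member that did not pass (−0.15, edgeR adjusted p = 0.14).

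Genes of contact with T cells divided by member. Of 13 tested genes outside the scores 9 were higher in the light zone and 2 in the dark zone, with a median of 0.35. Cd86, the ligand of CD28 on T cells (chromosome 16, 36603869 to 36666081, minus strand), stood at 149, 158 and 196 CPM in the light zone and 68.5, 95.1 and 121 CPM in the dark zone. The zones did not overlap, with a log2 difference of 0.82 ± 0.08 (edgeR adjusted p = 1.37e-06). Slamf1, an adhesion receptor shared by B and T cells, differed by 0.73 ± 0.07, at 175, 181 and 212 CPM against 99.0, 115 and 136 CPM. The cytokine receptor genes Il21r (0.33) and Il4ra (0.43) and the ligand gene Tnfsf9 (0.89) were also higher in the light zone. The members higher in the dark zone were Icam2 (−0.29, passing in 8 of 17 alternative analyses) and the SLAM family receptor Slamf6 (−0.29).

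NF-kB is a family of transcription factors that CD40 and the B cell receptor switch on, held in check by inhibitor proteins whose genes NF-kB itself induces. Among the 19 tested genes of its subunits and feedback, 12 were higher in the light zone and 1 in the dark zone, but 6 of the 19 were score genes. These included the inhibitor Nfkbia, at 311 against 94.1 CPM, and Nfkbid, at 23.7 against 3.66 CPM. Outside the scores 6 of 13 were higher in the light zone and 1 in the dark zone, with a median of 0.23. The shares over all tested genes outside the scores were 9.17% and 8.08%. The subunit gene Rel (chromosome 11, 23736847 to 23770970, minus strand) stood at 132, 147 and 154 CPM in the light zone and 77.5, 103 and 122 CPM in the dark zone. These did not overlap, and Rel differed by 0.54 ± 0.07 (log2, edgeR adjusted p = 2.92e-05). The co-regulator Bcl3 (1.70 ± 0.32), the inhibitor Tnip2 (1.16), the deubiquitinase Tnfaip3 (0.83), the adaptor Traf3 (0.68) and the inhibitor Nfkbib (0.37) were higher too, Traf3 in 6 of the 13 alternative analyses that could test it. The subunit genes were not alike: Nfkb1 was higher in the dark zone (−0.35 ± 0.11, edgeR adjusted p = 0.037; it passed in 10 of 17 alternative analyses), and Rela gave 0.13 (edgeR adjusted p = 0.44).

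The stretch just upstream of several of these genes holds a match to the NF-kB consensus, shown here for 6 members that were higher in the light zone because the letters lie close to the start. Sequences are from RefSeq promoters on GRCm38.p6, written 5′ to 3′ along the gene, with the match on either strand in capitals.
Nfkbia: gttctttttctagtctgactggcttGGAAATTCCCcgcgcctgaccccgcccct
Nfkb2: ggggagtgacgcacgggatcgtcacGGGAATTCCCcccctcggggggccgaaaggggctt
Nfkbie: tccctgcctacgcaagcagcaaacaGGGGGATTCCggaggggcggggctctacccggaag
Rel: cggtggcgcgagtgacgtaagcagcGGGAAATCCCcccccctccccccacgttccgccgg
Tnfaip3: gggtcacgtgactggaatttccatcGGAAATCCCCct
Traf3: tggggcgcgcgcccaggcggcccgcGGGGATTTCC
They lie at chr12:55492648-55492701 (minus strand) for Nfkbia, chr19:46304673-46304732 (plus) for Nfkb2, chr17:45555569-45555628 (plus) for Nfkbie, chr11:23771027-23771086 (minus) for Rel, chr10:19015411-19015447 (minus) for Tnfaip3 and chr12:111166335-111166369 (plus) for Traf3. The match begins 29 bases before the start in Nfkbia, 39 in Nfkb2, 106 in Nfkbie, 92 in Rel, 12 in Tnfaip3 and 10 in Traf3. Nfkbia, Nfkb2 and Nfkbie are score genes, and Rel, Tnfaip3 and Traf3 are not.

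The match was frequent in the NF-kB list and not in the zone genes at large. Of the 7375 tested genes 5659 had a promoter in the RefSeq table, and 586 of these (10.4%) held the consensus on either strand in the 250 bases before the start. In the NF-kB list the share was 10 of 17 (58.8%). Among genes outside the scores it was 63 of 518 (12.2%) for those higher in the light zone and 53 of 435 (12.2%) for those higher in the dark zone. The E-box letters CACGTG, which MYC binds, were in 10.7% of all promoters and in 12.5% and 9.66% of the light and dark zone genes, and in 4 of 17 promoters of the MYC list. The FOXO letters GTAAACA were in 2.53% of all promoters and in 2.32% and 4.14% of the light and dark zone genes. Such matches describe letters in a window and not bound sites.

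Myc and several genes of ribosome production were higher in the light zone in G1. Myc codes for the factor that drives growth of selected cells (chromosome 15, 61985391 to 61990374, plus strand). It stood at 20.6, 41.2 and 43.8 CPM in the light zone and 11.4, 19.5 and 23.5 CPM in the dark zone. The light zone was higher in 6 of 6 mice but the zones overlapped between mice: day 10 mouse 1 had 20.6 CPM in the light zone, below the highest dark zone value of another mouse (23.5 CPM). The log2 difference was 1.15 ± 0.15 (edgeR adjusted p = 3.37e-05). Outside the scores 11 of the 20 tested genes of the list were higher in the light zone and none in the dark zone, with a median of 0.25. They included the translation factor gene Eif5a (0.33 ± 0.03), the cytokine gene Mif (0.44 ± 0.06) and the nucleolar genes Npm1 (0.22 ± 0.03), Ncl (0.30), Fbl (0.33) and Gar1 (0.55).

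Genes induced within minutes of receptor signalling and genes of the receptor pathway gave mixed counts. Among all tested genes outside the scores 9.17% were higher in the light zone and 8.08% in the dark zone. Of the immediate early list 4 of 11 tested genes outside the scores were higher in the light zone and 1 in the dark zone. Dusp2, a phosphatase that ends MAP kinase signalling, stood at 300.2, 369 and 383 CPM against 168, 179 and 224 CPM (0.94 ± 0.06, log2, edgeR adjusted p = 1.22e-08), without overlap. Junb (0.82) and Zfp36 (0.44) were higher as well, while Fos (−0.02), Dusp1 (0.01) and Dnajb1 (0.00), which also react to cell handling, did not pass. In B cell receptor signalling 6 of 20 tested genes outside the scores were higher in the light zone and 4 in the dark zone. The inhibitory phosphatase Ptpn6 stood at 578, 644 and 677 CPM against 384, 472 and 517 CPM (0.47 ± 0.04), and Cd22 (0.43), Inpp5d (0.46), Ptprc (0.42) and the kinase Prkcb (0.67) were also higher in the light zone. The receptor chain Cd79b (−0.28 ± 0.03), the kinases Syk (−0.36) and Lyn (−0.21) and the adaptor Blnk (−0.17, passing in 9 of 18 alternative analyses) were higher in the dark zone.

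In the dark zone the largest difference outside the scores, by the same limits, was that of Emp2, a 4-pass membrane protein gene. It stood at 2.29, 7.09 and 14.6 CPM in the light zone and 12.98, 31.8 and 64.5 CPM in the dark zone. The dark zone was higher in 6 of 6 mice, though the zones overlapped between mice, with a log2 difference of −2.15 ± 0.19 (edgeR adjusted p = 3.16e-07). Rgcc, a regulator of the cell cycle first described as a complement response gene (chromosome 14, 79288756 to 79301645, minus strand), stood at 34.3, 54.4 and 64.6 CPM against 150, 199 and 243 CPM. Its zones were far apart, and its difference of −1.98 ± 0.08 (edgeR adjusted p = 5.59e-12) was 3.94-fold.

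Cdc25b, a phosphatase that activates cyclin-dependent kinases, stood at 67.4, 75.5 and 85.9 CPM in the light zone and 146, 156 and 185 CPM in the dark zone. Its difference was −1.11 ± 0.07 (edgeR adjusted p = 4.51e-09), without overlap. Smco4, a small membrane protein gene, was lower in the light zone by −1.01 ± 0.08 (log2), at 83.2, 100.0 and 117 CPM against 140, 209 and 244 CPM. Sepp1, the plasma selenium carrier (−1.50 ± 0.16), and Serpinf1, a secreted serpin (−1.004 ± 0.17), overlapped between the zones. Bckdha, a subunit of the enzyme that breaks down branched amino acids, differed by −1.02 ± 0.13. B3gnt8 lies on its opposite strand and differed the same way (−1.87 ± 0.27), and reads of the pair cannot be told apart unless the counting used strand, which is not stated. The other 3 of the 10 largest, Ccnb2, Knstrn and Cdkn3, belong to mitosis and are described with the cell cycle.

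Transcription factors went both ways. Over the list of B lineage and zone factors outside the scores, 5 of 25 were higher in the light zone and 7 in the dark zone, with a median of −0.04. The shares over all tested genes outside the scores were 9.17% and 8.08%. Foxo1, needed for the dark zone program (chromosome 3, 52268336 to 52353221, plus strand), stood at 37.9, 43.7 and 49.2 CPM in the light zone and 58.6, 61.1 and 64.9 CPM in the dark zone. It did not overlap and differed by −0.50 ± 0.10 (log2, edgeR adjusted p = 0.00132). Foxp1 (chromosome 6, 98925338 to 99522721, minus strand) stood at 80.4, 108 and 190 CPM against 160, 185 and 239 CPM and overlapped between mice. Within mice the dark zone was higher in 6 of 6, and the paired difference was −0.66 ± 0.09 (edgeR adjusted p = 2.4e-05). Bach2, a repressor of plasma cell genes, stood at 78.6, 97.2 and 106 CPM against 125, 131 and 138 CPM (−0.44 ± 0.07), and Tcf3, which codes for E2A, at 71.1, 84.4 and 91.3 CPM against 108, 119 and 131 CPM (−0.53 ± 0.07). Neither overlapped. The light zone members included Mef2c (0.41 ± 0.03), Pou2f2 (0.28) and Ikzf1 (0.27).

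Ccnd3 codes for cyclin D3, the G1 cyclin that sustains division of dark zone cells (chromosome 17, 47505051 to 47599691, plus strand). It stood at 271, 298 and 337 CPM in the light zone and 364, 418 and 431 CPM in the dark zone. These did not overlap, with a difference of −0.46 ± 0.04 (log2, edgeR adjusted p = 5.43e-07). Of the other G1 cyclins, inhibitors and quiescence genes outside the scores, Cdk4 (0.28), Btg1 (0.31) and Cdkn2c (0.52, passing in 7 of 17 alternative analyses) were higher in the light zone and Btg2 (−0.25) in the dark zone. With Ccnd3 that makes 3 and 2 of 14 genes, where all tested genes outside the scores gave 9.17% and 8.08%. Btg2 lost its call with DESeq2, without the mouse as a block and with equal cells per zone (−0.16). Without day 16 mouse 2 or without day 22 mouse 2 Btg2 lost the call as well. Btg1 lost its call with DESeq2 and among G1 cells with a lower share of G2 and M phase UMIs. Of the fixed dark zone markers outside the scores, 6 of 9 were higher in the dark zone, with a median of −0.46. The exception was Rgs13 (0.17, edgeR adjusted p = 0.038), which limits chemokine signalling and was higher in the light zone. It passed in 9 of 18 alternative analyses.

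Most genes of the hypermutation and repair list did not pass in G1: 15 of 23 tested, score genes included. Apex1, which cuts abasic sites, was higher in the light zone (0.59 ± 0.09, log2), as was Ung, which removes uracil from DNA (0.72 ± 0.24; edgeR adjusted p = 0.048). Ung was higher in the light zone in 4 of 6 mice and passed in 7 of 16 alternative analyses. Samhd1, which degrades nucleotides, was higher in the dark zone (−0.17). Among score genes Hmces, which shields abasic sites, stood at 338 CPM in the light zone and 659 CPM in the dark zone.

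Receptors that place B cells in the follicle differed in both directions. Cxcr5, the receptor for the chemokine CXCL13 of the light zone, stood at 84.3, 95.8 and 103 CPM against 54.3, 64.7 and 79.2 CPM in the dark zone, without overlap (0.54 ± 0.10, log2). The sphingosine phosphate receptor gene S1pr4 went the other way, at 17.1, 21.4 and 29.8 CPM against 30.5, 36.2 and 50.8 CPM (−0.78 ± 0.13). S1pr2 (−0.19) and its G protein Gna13 (−0.20), which confine cells to the germinal centre, were slightly higher in the dark zone, but S1pr2 passed in 11 of 18 alternative analyses and Gna13 in 6 of 17. Over the list 3 of 13 genes outside the scores were higher in the light zone and 4 in the dark zone. All tested genes outside the scores gave 9.17% and 8.08%.

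Energy genes leaned to the dark zone for respiration and not for glycolysis. Of 18 genes of oxidative phosphorylation, none in the scores, 10 were higher in the dark zone and 1 in the light zone, with a median of −0.16. They included the succinate dehydrogenase subunit Sdhb (−0.35 ± 0.04), the ATP synthase chains Atp5b (−0.27 ± 0.03) and Atp5a1 (−0.25 ± 0.04) and the cytochrome oxidase subunit Cox6b1 (−0.28 ± 0.04), and Atp5g1 (0.16) was the exception. Of 13 glycolysis genes outside the scores 2 were higher in the light zone, Aldoa (0.36 ± 0.03) and Hk1 (0.78 ± 0.20), and Gapdh was higher in the dark zone (−0.12 ± 0.03). Hk1 lost its call with DESeq2, and Gapdh lost it with thinned cells, with equal cells per zone and within cluster 0 (−0.04). Over all tested genes outside the scores 9.17% were higher in the light zone and 8.08% in the dark zone. Of 11 mitochondrially encoded genes outside the scores 5 were higher in the light zone, none by more than 0.13. Of these mt-Co2, mt-Atp8, mt-Nd4l and mt-Nd1 did not pass with DESeq2, without the mouse as a block or within cluster 0, and mt-Nd1 and mt-Nd4l passed in 2 of the 6 fits that left out a mouse.

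Further lists had members on both sides, beside 9.17% higher in the light zone and 8.08% in the dark zone over all tested genes outside the scores. Of the survival list outside the scores 4 of 15 genes were higher in the light zone and 3 in the dark zone. The death genes Bid (0.66 ± 0.07) and Bbc3 (0.88) were higher in the light zone along with the protective Bcl2a1 genes, and the death gene Bcl2l11, which codes for BIM, was higher in the dark zone, at 13.5 ± 2.72 against 23.7 ± 2.02 CPM (SD, n = 6; log2 −0.87 ± 0.16). Actin and adhesion genes were higher in the light zone for 9 of 23 and in the dark zone for 4, with Lcp1 (0.51 ± 0.03), Actb (0.28 ± 0.01) and Pfn1 (0.28 ± 0.02) among the former and Vim (−0.58 ± 0.08) and Cd44 (−0.45) among the latter. The 12 germinal centre core genes outside the scores gave 4 and 5, with Basp1 (0.50 ± 0.05) in the light zone and Nuggc (−0.46) in the dark zone. The interferon gene Ifi27l2a was higher in the dark zone (−0.96 ± 0.08). Without the mouse as a block Ifi27l2a no longer passed (edgeR adjusted p = 0.141).

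**Figure D4:**
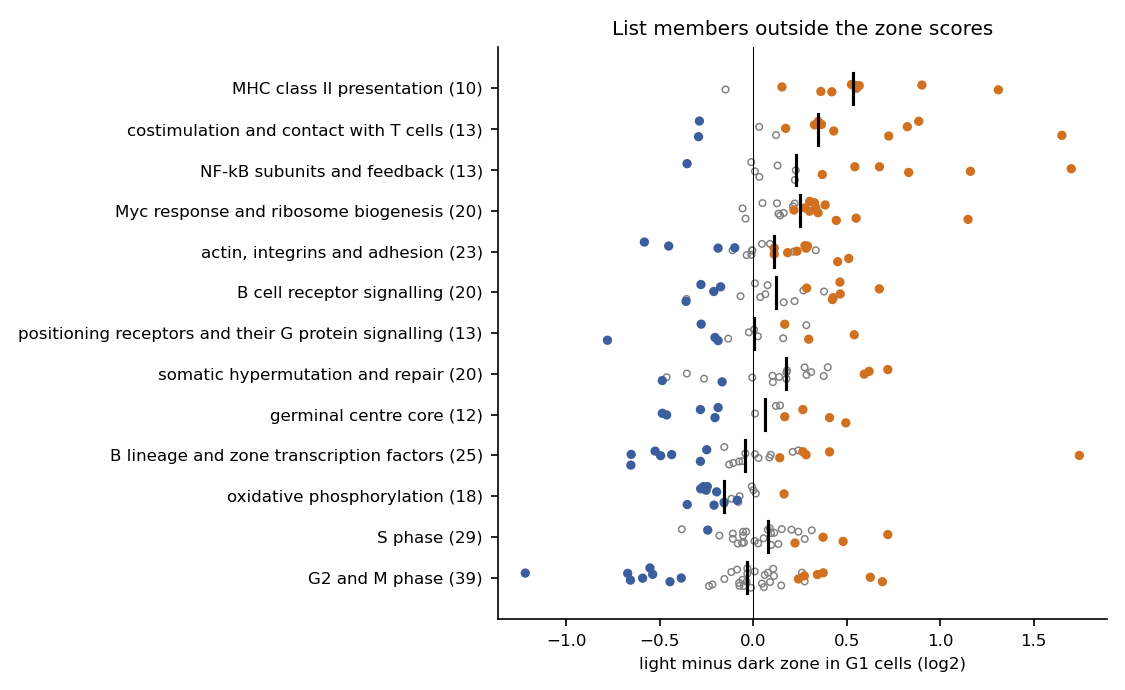
Log2 difference between light zone and dark zone G1 cells (horizontal axis, log2, positive is higher in the light zone) for the members of each gene list outside the zone scores. Each point is 1 gene, filled where it passed the test, and the black bar is the list's median: 0.54 for MHC class II, 0.25 for the MYC list, −0.16 for oxidative phosphorylation and −0.03 for the G2 and M phase list.

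Some genes of division differed between the zones in G1, in both directions. The method of the authors' phase call is not given in the sources used here and it can only have read the same RNA, so values of cycle genes are given as a description. Of 39 tested genes of the G2 and M phase list 6 were higher in the light zone and 8 in the dark zone, with a median of −0.03. Summed over all phases the same list had 42 of 42 genes higher in the dark zone, with a median of −0.84. Of 30 tested S phase genes 4 were higher in the light zone and 2 in the dark zone, with a median of 0.07. Over all genes tested in G1 10.2% were higher in the light zone and 9.08% in the dark zone, and the S phase counts were near those shares. With DESeq2's test the light and dark zone counts were 1 and 6 of 39 G2 and M phase genes and 0 and 1 of 30 S phase genes. Mki67, the usual proliferation marker, stood at 89.3, 105 and 119 CPM in light zone G1 cells and 89.8, 104 and 114 CPM in dark zone G1 cells, a difference of 0.05 ± 0.08.

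Cells called G1 were not free of division transcripts. Mki67 was seen in 47.0% of light zone and 47.1% of dark zone G1 cells, against 95.4% and 95.0% of those called G2M. Ccnb2, a mitotic cyclin, was seen in 21.3% and 36.0%, and Ube2c in 38.6% and 52.2%. Free RNA in the droplets adds UMIs to such shares, and its part was not measured. Only 115 light zone and 46 dark zone G1 cells had no UMI of any of 8 proliferation genes. Over the sums the G2 and M phase list took 0.257% ± 0.0113 of UMIs in the light zone and 0.310% ± 0.0149 in the dark zone (SD, n = 6), higher in the dark zone in 6 of 6 mice, and the S phase list 0.177% ± 0.00647 and 0.183% ± 0.00974, higher in the light zone in 4 of 6.

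Part of the mitotic genes that were higher in the dark zone lost their call within the main cluster of G1 cells, and others kept it. The cell table's cluster 3 held 138 of the 874 dark zone and 22 of the 1691 light zone G1 cells, and cluster 0 held 709 and 1569. Ccnb2 stood at 46.4 ± 14.1 against 105 ± 10.0 CPM over all G1 cells, a log2 difference of −1.22 ± 0.11, and the difference was −0.17 within cluster 0. Cdkn3, a phosphatase of mitotic kinases, went from −1.01 to −0.35, Hmgb2, a chromatin protein, from −0.45 to −0.07, and Cenpa, the centromere histone, from −0.66 to −0.13. Knstrn, a spindle and kinetochore protein gene, was still called in cluster 0 at −0.73, beside −1.16 over all G1 cells, as were Ube2c (−0.40 beside −0.55) and Cdc25b (−1.18 beside −1.11). Within cluster 0 the G2 and M phase list had 2 of 39 genes higher in the light zone and 1 in the dark zone. Of the 1422 genes called over all G1 cells 1391 could be tested in cluster 0. There 1000 of them were called, all in the same direction, and 1387 kept their sign. Cluster 0 had 1080 called genes in all. Its cells are most of the G1 cells, so these counts carry no test. The alternative was chosen after the data were seen.

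A minority of the zone genes of the whole cycle passed again in G1. Over all phases 3177 of 9333 genes were called, 1587 (17%) higher in the light zone and 1590 (17%) in the dark zone, and 2796 of them could be tested in G1. Of these 1212 (43.3%) were called in the same direction, 2569 kept their sign and 17 were called in the opposite direction. These counts include score genes, with which the labels were made. Outside the scores 1025 of 2582 (39.7%) were called in the same direction, 2355 kept their sign and 17 were called in the opposite direction. The G1 cells are part of the cells of all phases, so these counts carry no test. Fewer cells also mean fewer calls: with all phases drawn down to the number of G1 cells, 1761 genes were called, and 1017 of the 1691 tested in G1 were called there too. The shares were alike in each direction, 44.8% of light zone genes (622 of 1389) and 41.9% of dark zone genes (590 of 1407). Outside the scores they were 41.2% (527 of 1278) and 38.2% (498 of 1304). A further 193 of the 1422 G1 calls were not called over all phases.

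All 17 genes that turned over were higher in the dark zone over all phases and higher in the light zone in G1, and 6 of them are on the G2 and M phase list. The count depended on the cells used. With cells thinned to equal depth it was 6, where 1773 zone genes could be tested in G1. With a mouse left out it was 11 to 17. Aurka, a mitotic kinase, went from −1.17 over all phases to 0.69 in G1. Scaled together with the cycling cells, Aurka averaged only 14.9 CPM in light zone and 9.78 CPM in dark zone G1 cells. Its G1 call was lost with DESeq2, without the mouse as a block, with thinned cells (0.30) and within cluster 0. Several fits that left out a mouse lost it as well. Cks2, a kinase partner, went from −0.72 to 0.37, with 140, 175 and 180 CPM in light zone and 104, 130 and 146 CPM in dark zone G1 cells. Tuba1c, a tubulin, went from −0.86 to 0.32, Nusap1 from −0.57 to 0.34 and Top2a, which untangles DNA, from −0.29 to 0.24. The others were Ptma, Ube2t, Nup37, Cdca2, Bora, Mis18a, Ndc80, Ccdc34, Arhgap11a, Smc4, Trim59 and Arl6ip1.

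The zone difference itself was compared between G1 and cycling cells (S and G2M together). Of 8552 genes, 172 had a higher light minus dark difference in G1 (2.01%) and 71 a lower one (0.83%). Most markers were not among them: the phase contrast gave 0.40 for Il4i1 (edgeR adjusted p = 0.10), 0.01 for Fcer2a (edgeR adjusted p = 1.00) and 0.05 for Foxp1 (edgeR adjusted p = 0.95). In cycling cells Il4i1 differed by 1.95 ± 0.09, Fcer2a by 1.53 ± 0.07 and Foxp1 by −0.73 ± 0.10, beside 2.37, 1.56 and −0.66 in G1. A p that misses the threshold does not show that the differences were equal.

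Cycle genes made up part of the contrast. Of the 172 genes 22 are on the G2 and M phase list, and of the 71 genes 10 are on the S phase list. In cycling cells 38 of 39 G2 and M phase genes were higher in the dark zone (median −0.68) and 26 of 30 S phase genes in the light zone (median 0.38), in cells of which 70.7% in the light zone and 42.1% in the dark zone were in S phase. This fit is scaled over both classes of cells. The largest contrast named by rule was that of the antibody segment Igkv1-133 (2.85 in G1, −1.20 in cycling cells). Next in that direction came Aurka (0.67 and −1.06), Pif1 (0.40 and −1.26), Gm10184 (0.53 and −1.09), Cdc20 (0.04 and −1.49) and C330027C09Rik (0.39 and −1.01). In the other direction the largest was Lyz2 of the myeloid list (0.30 and 2.76). In cycling cells Lyz2 averaged 59.3 CPM in the light zone and 7.99 CPM in the dark zone. It was followed by Ccne2 (−0.40 and 0.62), Hn1l (−0.60 and 0.32), Tyms (−0.20 and 0.60), 2310039H08Rik and Map1lc3a. With S phase cells alone as the cycling class, chosen after the data were seen, 100 genes were called, 93 and 7 by direction, of which 1 is on a cycle list and 53 were among the 243. That form also has fewer cells. Tyms (−0.63, beside −0.80) and Hn1l (−0.76, beside −0.92) were not called in it, at an edgeR adjusted p of 0.0723 and 0.0802, and Cdc20 went from 1.52 to 0.68 and Aurka from 1.73 to 0.78. What part the mixture of S and G2M cells has in the contrast was not tested.

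Some genes outside the cycle lists passed both forms of the contrast. Hmgn2, a nucleosome binding protein, was more dark zone in G1 (−0.83) than in cycling cells (−0.36), a contrast of −0.47 ± 0.05 (edgeR adjusted p = 3.36e-05) that was −0.48 against S phase alone. Stmn1, which takes microtubules apart, gave −0.60 and −0.13, and Crip1, a small LIM protein, −0.41 and −0.05. Lrmp, a membrane protein of the endoplasmic reticulum in lymphocytes, was higher in the light zone in G1 (0.48) and in the dark zone in cycling cells (−0.26), with a contrast of 0.74 ± 0.06. Against S phase alone the contrast for Lrmp was 0.38 ± 0.07, since S phase cells gave 0.12. The ribosomal protein gene Rplp1 and the elongation factor gene Eef1a1 moved by small amounts (0.21 and 0.14). Cd72 gave 1.65 in G1 and 0.90 in cycling cells (edgeR adjusted p = 0.0085 for the contrast), and against S phase alone the contrast was 0.63 ± 0.17 (edgeR adjusted p = 0.0967), beside 0.73 in the first form. Ccnd3 likewise gave −0.46 and −0.23 (edgeR adjusted p = 0.024), with an edgeR adjusted p of 0.836 against S phase.

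**Figure D5:**
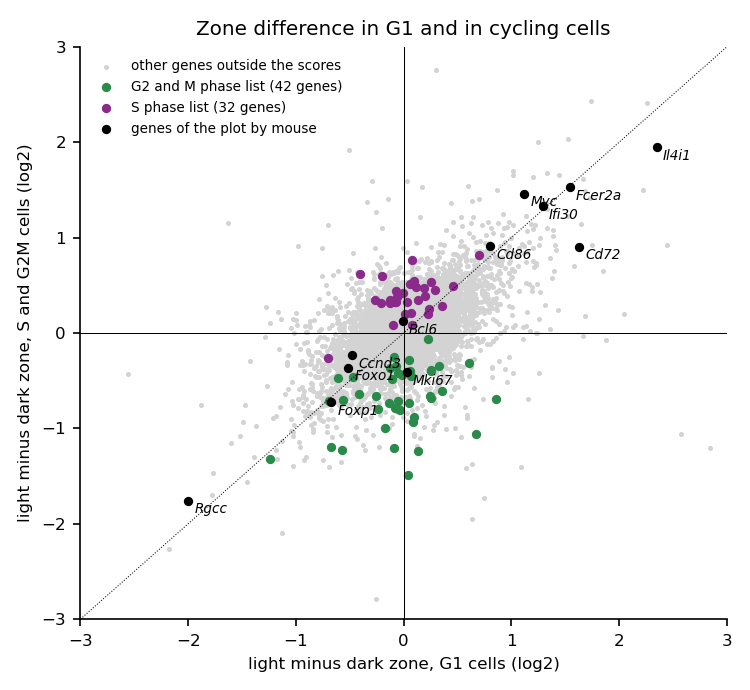
Log2 difference between light and dark zone in G1 cells (horizontal axis) against that in cycling cells (vertical axis) for genes outside the zone scores, 1 point per gene, positive is higher in the light zone. Genes of the G2 and M phase list lie below 0 in cycling cells (median −0.68) and around 0 in G1 (median −0.03), genes of the S phase list above 0 in cycling cells (median 0.38) and around 0 in G1 (median 0.07); 6 genes lie outside the axes.

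The zone differences in G1 were compared between days 10, 16 and 22, with 2 mice a day. Only 13 of 7375 genes (0.176%) differed between days, and all 13 are variable segments of antibody genes. Igkv5-45 stood at 52.2 and 25.8 CPM in light zone and 1.20 and 2.14 CPM in dark zone G1 cells of the day 16 mice, and at 3.43 and 21.3 against 3.25 and 74.6 CPM in the day 10 mice. The mice of a day thus differed from each other as well. Segment use follows the clones of each mouse, and clones were not analysed here. No gene of the zone markers or the lists above, antibody segments aside, passed this test, which rests on 2 mice a day.

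Markers of other cells varied by list. Some defining markers of T cells, plasma cells and myeloid cells were at or near 0, and others were not. Of 10 T cell genes Cd3e, Cd4 and Cd8a had 0 UMIs in either zone, and Cd3d 8 and 6, whereas Lck had 1625 in the light zone and 419 in the dark zone and Lat 150 and 40. Lck, a kinase best known from T cells, stood at 99.6, 151 and 169 CPM in the light zone and 37.4, 64.0 and 87.9 CPM in the dark zone (1.13 ± 0.07, log2). The T cell list took 0.0117% to 0.0179% of UMIs in the light zone and 0.00407% to 0.00970% in the dark zone. The plasma cell list was higher in the dark zone, at 0.329% to 0.382% of UMIs against 0.231% to 0.247%, carried by the antibody chain gene Jchain (943, 965 and 986 against 1467, 1557 and 1815 CPM; −0.74 ± 0.04) and Mzb1. Sdc1, which defines plasma cells, had 1 and 0 UMIs in the light and dark zone, Prdm1 19 and 4, and Xbp1 1349 and 821. The myeloid list took 0.0238% to 0.0377% in the light zone and 0.0324% to 0.0405% in the dark zone, mostly Cst3, with Itgam at 0 in both zones. Other myeloid genes were present: Lyz2 had 198 UMIs in the light zone and 107 in the dark zone, Cd68 128 and 39, and Tyrobp 52 and 39. The naive B cell list, which holds Fcer2a, took 0.0646% to 0.0908% and 0.0415% to 0.0547%, and Ighd on that list gave 0.58 (edgeR adjusted p = 0.097). The part of other cells in the results was not tested.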

How the data were processed

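Single-cell 5' libraries of the non-PC fraction were used. The deposited matrix gives raw UMI counts for 14493 genes, and the deposited cell table gives zone scores (unit: score), phase, cluster, state and mouse per cell. Per the submitters' processing notes the authors used Cell Ranger and Seurat on GRCm38/mm10, with versions, the phase method and doublet treatment not given in the sources used here. No cell was removed here, and no doublet caller was run.

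Counts were summed per mouse and zone (at least 10 cells) and tested with edgeR 4.0.16 in R 4.3.3: TMM, filterByExpr, quasi-likelihood F test, mouse as a block, and Benjamini-Hochberg adjustment over all tested genes (threshold 0.05). Zone sums are paired because both zones come from the same mouse. Shares were compared by exact permutation (scipy 1.17.1). The edgeR step was tested on simulated data with known changes. Score genes were those given a weight above 0.001 by iterated ridge regression of a deposited score on log expression over all cells; a score gene seen in few cells can be missed. Positions are from GENCODE release M21, and 412 of 415 named or listed genes matched.

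The rule named, in each direction, the 10 largest differences past the threshold with at least 20 CPM and 1 direction in all 6 mice (no immunoglobulin, mitochondrial, ribosomal or predicted genes), up to 4 genes of lowest p per list, 12 set genes, 6 genes per direction of the phase contrast and 4 for days. Other list members are named to account for a list. The members, lists and rule were chosen with earlier results of these data known. Intervals given as SD are over mice. Alternatives were DESeq2 1.42.0, other filters, thinned or equal cell numbers, narrower sets of G1 cells and each mouse left out. Receptor and hashtag libraries and the plasma cell fraction were not used here. Results for a few genes are not reported here.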

Additional observations from a re-analysis of the deposited data

Results flagged for a closer look

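With 50 sets of 6 values examined for a mouse standing apart, chance alone would mark about 1 in 20, and 4 were marked. For the score gene Tagap, day 10 mouse 1 had a zone difference of 5.23 (log2), where the next mouse had 2.57 and the lowest 1.27; its dark zone sum held 0 CPM, so the value depends on the offset added. For Rgcc, day 10 mouse 2 had −2.36, beyond the next at −1.95 and the other end at −1.86. For Cdc25b, day 16 mouse 2 had −1.41, beyond −1.11 and −0.97. For the share of cells in G1, day 10 mouse 1 had a difference between the zones of 10.5 percentage points, where the next mouse had 16.4 and the highest 20.0.

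The zone difference in G1 differed between days for antibody segments, with opposite directions between days by the test of the zone by day terms. Igkv1-135 gave 1.16 on day 10, −1.34 on day 16 and −1.51 on day 22 (log2; edgeR adjusted p = 0.000229). Igkv5-45 gave −1.70, 4.42 and 0.06 (edgeR adjusted p = 0.000271). Igkv16-104 gave 3.69, 1.24 and −0.91, and Ighv1-80 gave −1.52, 0.52 and 2.61 (edgeR adjusted p = 0.0103 for each).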

How the results depend on the processing

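Over 2529 recomputed values of named genes 2336 stayed on their side of the threshold, called or not, 177 lost their call in the same direction, 10 gained one and 6 of called differences turned sign. Those that turned did so among cells with no UMI of 8 proliferation genes, for Npm1 (−0.0044), Fcmr (−0.25), mt-Co2 (−0.016), mt-Atp8 (−0.013) and mt-Nd4l (−0.047), and among cells with a low share of G2 and M phase UMIs for Cenpa (0.018); the cause was not tested.

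Light and dark zone calls numbered 354 and 336 with DESeq2's own test (277 and 258 outside the scores), all 690 of them also called by edgeR in the same direction. They were 388 and 349 (323 and 273 outside) in the cells whose share of G2 and M phase UMIs was below the median, and 37 and 32 (26 and 23 outside) in the 115 and 46 cells without proliferation UMIs, with 5 or more cells per sum, where 847 genes were tested and 66 zone genes of all phases passed. Both sets were added after the data were seen, and both hold fewer cells. The planned form with 10 cells per sum left 1 mouse and could not be fitted. Cells thinned to equal depth gave 419 dark zone calls (340 outside), with fewer cells and genes tested. Every mouse pairs its zones. Without the replicate block calls fell to 589 and 530 (498 and 440 outside) and the phase contrast to 127 genes; of the named genes, 19 lost their call and none turned sign.

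The phase contrast gave 463 genes with no filter on low counts and 100 against S phase alone, and the contrast of days 126 genes with no filter. Leaving out each mouse gave 557 to 696 light zone and 497 to 698 dark zone calls (473 to 596 and 412 to 606 outside the scores), 886 to 1178 zone genes of all phases called in G1, and 143 to 238 genes in the phase contrast, where it fell to 158 without day 16 mouse 2 and 143 without day 22 mouse 2. It gave 16.1 to 18.01 percentage points for the G1 share, −551 to −408 for the median UMIs, −0.00807 to −0.000725 points for the S phase share of UMIs and −0.0566 to −0.0501 for the G2 and M phase share. With 5 mice the smallest exact p is 0.0625, so no permutation call can be kept. The G2 and M phase share differed by −0.0117 points among cells without proliferation UMIs (exact permutation p = 0.4375). Depth limits genes under about 20 CPM, where a sum of the smallest mouse holds few UMIs.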
